A study of Mus musculus with 15 samples.

Results

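The sites described here are those that SAM68 held in the transcripts of 3 genes for RNA-binding proteins, Rbms3, Rbpms and Msi2. They were taken from 3 lists of SAM68 binding sites as every entry whose Ensembl gene ID belonged to 1 of the 3 genes, which gave 1010 of 132293 sites (0.763%). Rbms3 held 310 of them, Rbpms 410 and Msi2 290. The genes were picked with their site numbers per day already known, so those numbers are given as a description and are not tested.

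SAM68 was mapped by iCLIP2, in which ultraviolet light fixes a protein to RNA and the stop of reverse transcription marks the crosslinked nucleotide, in E14 mouse embryonic stem cells, for which the labels name no genetic change or drug besides the culture media. Day 0 was the undifferentiated culture, grown without feeder cells in serum with LIF and with inhibitors of GSK and MEK (5 libraries). Day 3 was embryoid bodies from hanging drops, grown in serum (5 libraries), and day 10 was embryoid bodies plated directly into spheroid plates (5 libraries), so day and culture format cannot be told apart. Each day is represented by 1 list that combines its libraries, with 29740 sites on day 0, 28266 on day 3 and 74287 on day 10. The spread between libraries is therefore unknown, no test between days was possible, and intervals below are 95% intervals for counting error alone. Neighbouring sites in a gene are not independent, which these intervals do not cover. RNA levels were not measured in these lists, and more RNA of a gene, more cells that express it and denser binding cannot be told apart.

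Rbms3, Rbpms and Msi2 belong to separate families of proteins that bind RNA through RNA recognition motifs. RBMS3 is a single-strand-interacting protein that binds AU-rich RNA and is known from mesenchymal cells. RBPMS, also called hermes, is a splicing regulator of heart and smooth muscle cells. MSI2 is a Musashi protein, a regulator of translation in stem and progenitor cells. SAM68 itself, a member of the STAR proteins, regulates splicing and prefers short A- and U-rich motifs.

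Marker genes of cell types, in groups chosen here and not taken from the labels, were looked up in the lists. Of 8 stem cell markers, 7 held sites on day 0, 153 in all, against a single site on day 10, and Sox2 held none on any day. The 3 markers of the primed state held 45 sites on day 3 and none on the other days. Of 9 heart and mesoderm markers, 8 held 759 sites on day 10, with Nkx2-5 at none, against 0 sites on day 0 and 4 on day 3. Slc8a1 alone held 439 of the 759. Smooth muscle and mesenchyme markers held 52 sites on day 10, in 4 of 8 genes (Acta2, Myocd, Pdgfra and Col1a2), and none earlier, with 1 further day 10 site of Tagln left out because its ID had no unique name. Over the 3 days in order, endoderm markers held 0, 5 and 202 sites, endothelial and blood markers 6, 0 and 11, and 5 neural markers none on any day. All 6 endothelial and blood sites of day 0 were in Pecam1. These numbers are not scaled by gene length, and a longer gene can hold more sites. The neural markers span from 4.04 kb (Sox1) to 37.1 kb (Elavl3), against 365 kb for Slc8a1. The groups are therefore not compared with each other. Of the endoderm sites on day 10, Col4a1 held 87, Dab2 80, Gata6 33 and Afp 2, while Sox17 and Foxa2 held none on any day. Rbms3 appeared on day 10, which also held most sites of the heart and endoderm markers and all of the smooth muscle and mesenchyme markers. The part of cell composition in its numbers was not tested.

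Rbms3 was bound on day 10 alone, and every one of its sites lay downstream of an internal transcript start. RefSeq places Rbms3 on the minus strand of chromosome 9 from 116572746 to 117629913 (GRCm38.p6, the build of all gene spans here), a span of 1057 kb. RefSeq lists a start at the upstream edge of the span, at position 117629913, and another inside it, at position 117252483, 377 kb further along the gene. The sequences around both starts are shown because the map of sites divides at the second one. Each runs from 250 bases before the start to 50 bases from it, and the capitals mark the 50 bases that would open the transcript. The first is chr9:117629864-117630163 and the second chr9:117252434-117252733, both on the minus strand and both from RefSeq.
Rbms3 upstream start: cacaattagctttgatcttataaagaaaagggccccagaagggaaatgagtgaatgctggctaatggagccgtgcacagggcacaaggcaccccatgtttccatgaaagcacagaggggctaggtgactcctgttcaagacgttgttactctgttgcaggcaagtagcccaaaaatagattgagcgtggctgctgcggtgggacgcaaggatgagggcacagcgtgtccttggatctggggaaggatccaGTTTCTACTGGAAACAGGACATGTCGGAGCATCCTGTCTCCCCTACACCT
Rbms3 internal start: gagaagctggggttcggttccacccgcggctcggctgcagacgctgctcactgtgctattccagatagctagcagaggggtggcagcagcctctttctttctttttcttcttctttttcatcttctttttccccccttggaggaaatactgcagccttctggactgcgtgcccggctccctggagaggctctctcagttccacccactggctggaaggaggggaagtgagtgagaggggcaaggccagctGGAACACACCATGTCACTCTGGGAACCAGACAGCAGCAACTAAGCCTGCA
The GC content was 52.0% in the upstream window and 56.7% in the internal window, against a median of 52.7% over 32851 RefSeq windows of that length, and both held 7 CpG dinucleotides, the median number. The letters TATAAA, searched on both strands, occurred once in the upstream window and not in the internal one, and 13.6% of all windows hold them. CCAAT and GGGCGG occurred in neither, while 37.4% and 35.7% of all windows hold them.

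In the lists, Rbms3 held 0 sites on day 0, 0 on day 3 and 310 on day 10 (interval 276 to 347). It was thus listed at 0 on both earlier days, and no fold was computed. On day 10 it ranked 6 of 6345 bound genes by number of sites, with 41.7 sites per 10000 sites of the list (37.2 to 46.6). Per length its rank was lower. Its level was 29.3 sites per 100 kb of span (26.1 to 32.8), rank 1435 of 5774 named protein-coding genes with a site that day, against a median of 12.2. No minimum number of sites was set for density ranks, here or for the other genes, so short genes with few sites enter them. Hbb-bh1, for example, held 1 site on day 10 and stood at 65.6 per 100 kb.

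The stretch of 377 kb between the starts, 35.7% of the Rbms3 span, held no site. The most upstream site was centred on position 117249967, 2516 nt downstream of the internal start, and all 310 sites followed from there. Neither strand of the empty stretch held a site of any other gene on any day. Counted over the 680 kb downstream of the internal start, the density was 45.6 sites per 100 kb. The lists hold no sites outside genes, and the sources used here do not give the gene spans that the authors used. If their Rbms3 began at the internal start, sites further upstream could not have been listed. Among the 79 named genes with at least 100 sites on day 10, 5 had no site in the first 35.7% of their span, namely Rbms3, Etl4, Nfia, Robo2 and Zfhx3, the last 4 being named after this count was seen.

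Downstream of the internal start, Rbms3 sites thinned towards the end of the gene, though not evenly. When the 680 kb were divided in 3 equal stretches, the first held 157 sites (50.6%), the middle 107 (34.5%) and the last 46 (14.8%). With the whole span divided into 10 equal parts, parts 4 to 10 held 45, 55, 69, 65, 41, 20 and 15 sites, and the internal start lies inside part 4. The median site lay 603 kb from the upstream edge of the span. The site nearest to the end of the gene was 7.60 kb from it, and 1 site lay within 10 kb of the end. The widest gap between neighbouring sites was 31.1 kb, from 896 to 927 kb along the span. The densest window of 10 kb, chr9:116930474-116940474, held 20 of the 310 sites (6.45%). Sites of Rbms3 therefore filled a broad part of the gene with no single dominant cluster.

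**Figure D1:**
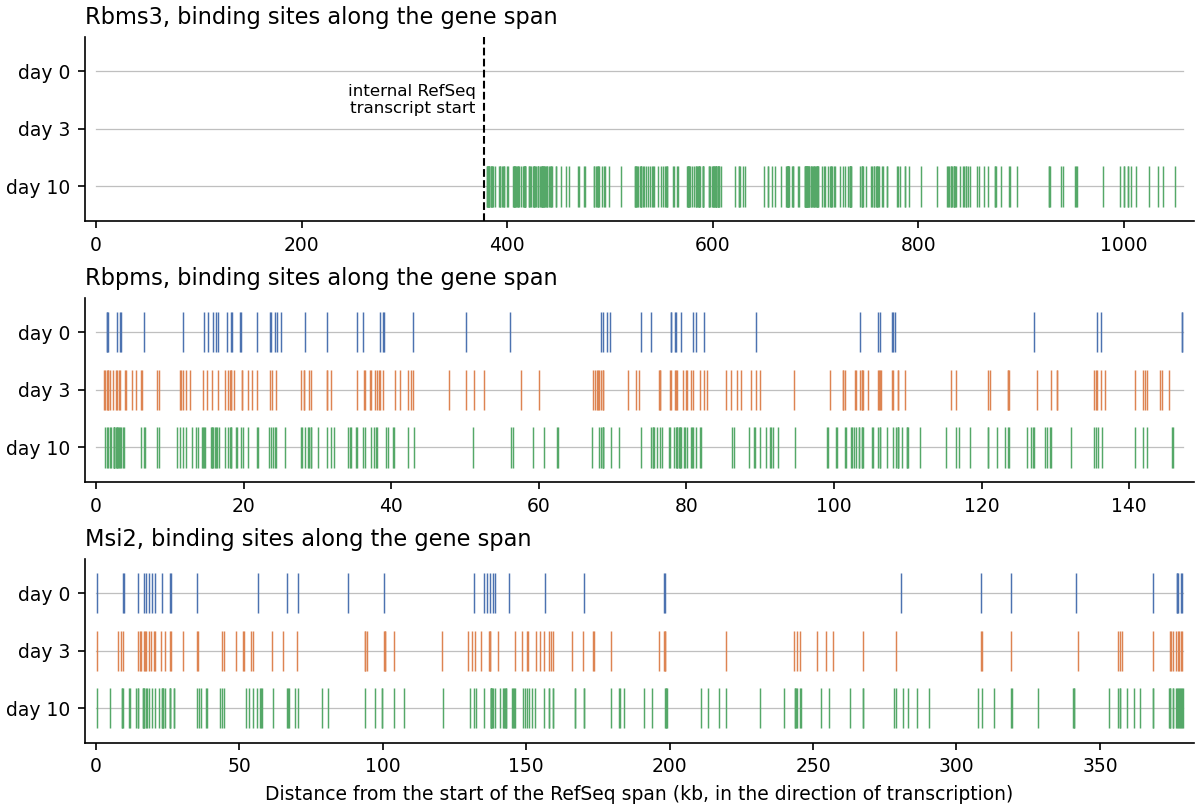
Position of every SAM68 site along Rbms3, Rbpms and Msi2, as distance in kb from the start of the RefSeq span in the direction of transcription, with 1 row of marks per day. The 310 Rbms3 sites all fall to the right of the internal start (dashed line, at 377 kb) and all belong to day 10, while Rbpms and Msi2 carry sites on the 3 days from near the start to near the end, with a gap of 82.0 kb in Msi2 on day 0.

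Rbpms was bound on all 3 days and was among the most heavily bound transcripts of day 3. It lies on the minus strand of chromosome 8 from 33782643 to 33929922, a span of 147 kb. It held 60 sites on day 0 (45.8 to 77.2), 149 on day 3 (126 to 175) and 201 on day 10 (174 to 231). Its rank by number was 34 of 5056 bound genes on day 0, 3 of 5034 on day 3 and 19 of 6345 on day 10. The number was thus highest on day 10, while the rank was highest on day 3.

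Per length, Rbpms was bound far more densely than the other two genes. It held 40.7 sites per 100 kb on day 0 (31.1 to 52.4), 101 on day 3 (85.6 to 119) and 136 on day 10 (118 to 157). The medians over named protein-coding genes with a site were 7.90, 7.56 and 12.2. Its density ranked 410 of 4520 such genes on day 0, 98 of 4535 on day 3 and 133 of 5774 on day 10. On day 10 the density intervals of Rbpms, Msi2 and Rbms3 did not overlap, and Rbpms was the highest of the 3 and Rbms3 the lowest, but counted downstream of its internal start Rbms3 stood at 45.6 (40.7 to 51.0), above the 42.2 of Msi2 (35.9 to 49.3) with overlapping intervals. Day 0 had the same order of Rbpms over Msi2, again without overlap of the intervals, and so did day 3.

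Msi2 showed the same order of days at lower levels. It lies on the minus strand of chromosome 11 from 88339382 to 88718306, a span of 379 kb. It held 39 sites on day 0 (27.7 to 53.3), 91 on day 3 (73.3 to 112) and 160 on day 10 (136 to 187). Its rank by number was 85 of 5056 on day 0, 8 of 5034 on day 3 and 32 of 6345 on day 10. The density was 10.3, 24.0 and 42.2 sites per 100 kb on day 0, day 3 and day 10, with ranks 1881 of 4520, 795 of 4535 and 966 of 5774.

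As a share of the list, Rbpms and Msi2 stood highest on day 3, an order of day 3 over day 10 that turned when numbers were scaled by bound genes. Rbpms held 20.2 sites per 10000 on day 0 (15.4 to 26.0), 52.7 on day 3 (44.6 to 61.9) and 27.1 on day 10 (23.4 to 31.1). Msi2 held 13.1 (9.33 to 17.9), 32.2 (25.9 to 39.5) and 21.5 (18.3 to 25.1). For both genes the day 3 interval lay above those of the other days. The lists of day 0 and day 3 are of similar length, and scaling by the number of bound genes in place of list length moves their log2 ratios by -0.07.

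The share of Rbpms on day 3 was 2.61 times that of day 0 (1.92 to 3.59), and the share of Msi2 was 2.46 times (1.67 to 3.67). Both intervals exclude 1. By that rule 16.9% of the 724 genes that held 20 sites or more over this pair of lists had gained share by day 3 and 17.1% had lost share, and of all 6346 genes 3.84% and 4.3%. As these genes were chosen on the same numbers, nothing is read from the comparison with that background.

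From day 3 to day 10 the direction depended on the scale. Scaled by list length, the Rbpms share on day 10 was 0.513 times that of day 3 (0.413 to 0.639), and scaled by the number of bound genes the ratio turned to 1.07 (0.862 to 1.33). For Msi2 the ratio of shares was 0.669 (0.514 to 0.875), and by bound genes it turned to 1.39 (1.07 to 1.82). The day 10 list is 2.63 times as long as the day 3 list with 1.26 times as many bound genes, and the choice between the scales moves every log2 ratio of this pair by 1.06. Of genes that held 20 sites or more over this pair, 17.5% had a smaller share on day 10 and 24.5% a larger one.

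Against day 0, Msi2 held 1.64 times the share on day 10 (1.15 to 2.39) and Rbpms 1.34 times (1.00 to 1.82). The lower bound for Rbpms lies at 1.00 after rounding, and the interval includes 1 when sites within 50 nt are merged (1.27, 0.942 to 1.74) or when the list is restricted to protein-coding genes (1.32, 0.983 to 1.79). With Rbms3, listed at 0 on day 0, all 3 genes had a larger share on day 10, beside 30.1% of the 1351 genes that held 20 sites or more over the pair (19.5% had a smaller one) and 7.33% of all 7451 genes.

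**Figure D2:**
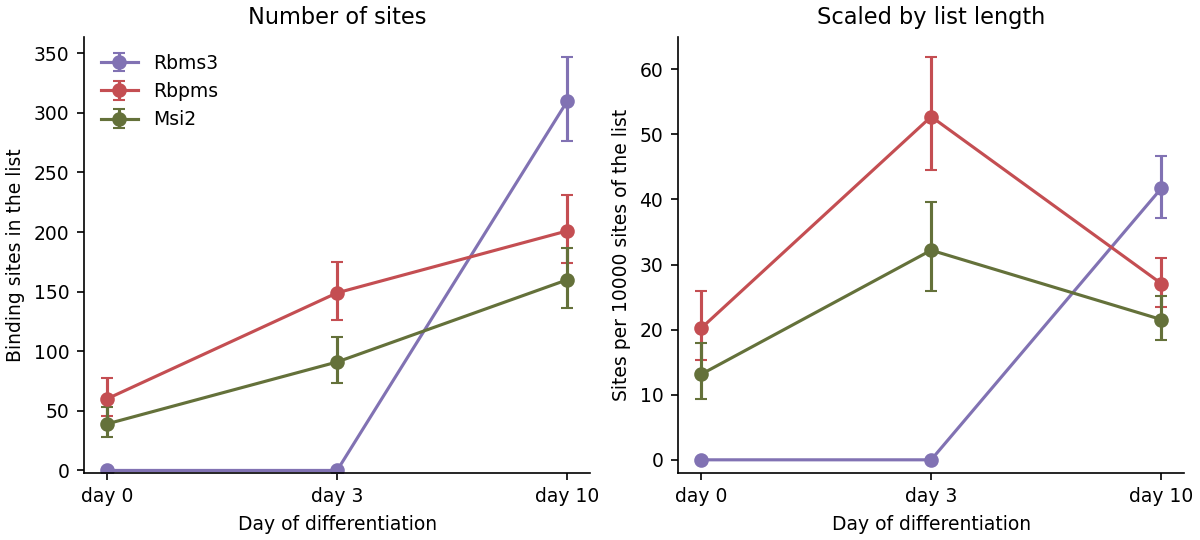
Number of sites (left) and sites per 10000 sites of the list (right) for Rbms3, Rbpms and Msi2 on day 0, day 3 and day 10, with exact Poisson 95% intervals for counting error and none where a gene is listed at 0. Numbers of Rbpms and Msi2 are highest on day 10 (201 and 160 sites), their shares by list length are highest on day 3 (52.7 and 32.2) though not when scaled by bound genes, and Rbms3 appears on day 10 alone.

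Within Rbpms, the beginning of the gene held many sites on each day. The span was divided into 10 equal parts, numbered from the start. Parts 1 to 3 held 9, 16 and 7 of the 60 sites of day 0, 25, 22 and 18 of the 149 of day 3, and 34, 33 and 21 of the 201 of day 10. Part 4 was thinly bound each day, with 2, 5 and 3 sites in the order of the days, and part 6 held 10, 20 and 29. The widest stretch free of sites over the 3 lists was 4.63 kb and lay where parts 3 and 4 meet, between 43.2 and 47.8 kb from the start.

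Part 7 of Rbpms held 1 site on day 0, 10 on day 3 and 20 on day 10, and part 9 held 1, 9 and 16. In percent of the gene's sites, part 7 held 1.67% (interval 0.0422 to 8.94), 6.71% (3.27 to 12.0) and 9.95% (6.18 to 14.9), and these intervals overlap. The median site lay 39.0 kb from the start on day 0, 68.0 kb on day 3 and 68.7 kb on day 10. The day 0 median thus sat nearer to the start than that of the later days, with 60 sites behind it.

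The densest window of 10 kb of Rbpms lay near its start on day 0 and day 10, and on day 3 windows near the start and further along the gene were equally dense. On day 0 it ran from 14.7 to 24.7 kb from the start (chr8:33905222-33915222) and held 15 of 60 sites (25%), and the same window held 17 sites on day 3 and 26 on day 10. On day 3 the highest number was 19 of 149 sites (12.8%), held alike by the windows that began 1.04, 11.4, 99.4 and 101 kb from the start. On day 10 the densest window ran from 11.0 to 21.0 kb and held 29 of 201 sites (14.4%). Sites also reached both edges of the gene. The nearest site to the start was 1435, 1038 and 1242 nt from it on day 0, day 3 and day 10, and the nearest to the end was 64, 1897 and 1315 nt from it.

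In Msi2, parts 1, 4 and 10 held more sites than any other part on each day. Part 1 held 13 of 39 sites on day 0 (33.3%), 21 of 91 on day 3 (23.1%) and 33 of 160 on day 10 (20.6%). In the order of the days, part 4 held 7, 13 and 26 sites, and part 10 held 7, 13 and 23. Between them, part 8 held 1, 2 and 8 sites. The widest stretch without a site over the 3 lists was 17.1 kb, from 290 to 308 kb along the gene. On day 0 alone it was 82.0 kb, from 198 to 280 kb, which is 21.6% of the span.

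The densest 10 kb window of Msi2 was almost the same on the 3 days. It began 16.7 kb from the start on day 0, 14.8 kb on day 3 and 16.4 kb on day 10, and held 8, 12 and 18 sites respectively. Within 2 kb of the end of the gene lay 3, 4 and 6 sites, and within 10 kb of it 5, 8 and 13. A lone site stood 204 nt from the edge of the span on day 0 and day 10 and 203 nt on day 3, and it was the one Msi2 site within 2 kb of the start on each day. RefSeq lists 3 Msi2 starts, at positions 88718277, 88718267 and 88718229, and this site lies downstream of all of them.

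**Figure D3:**
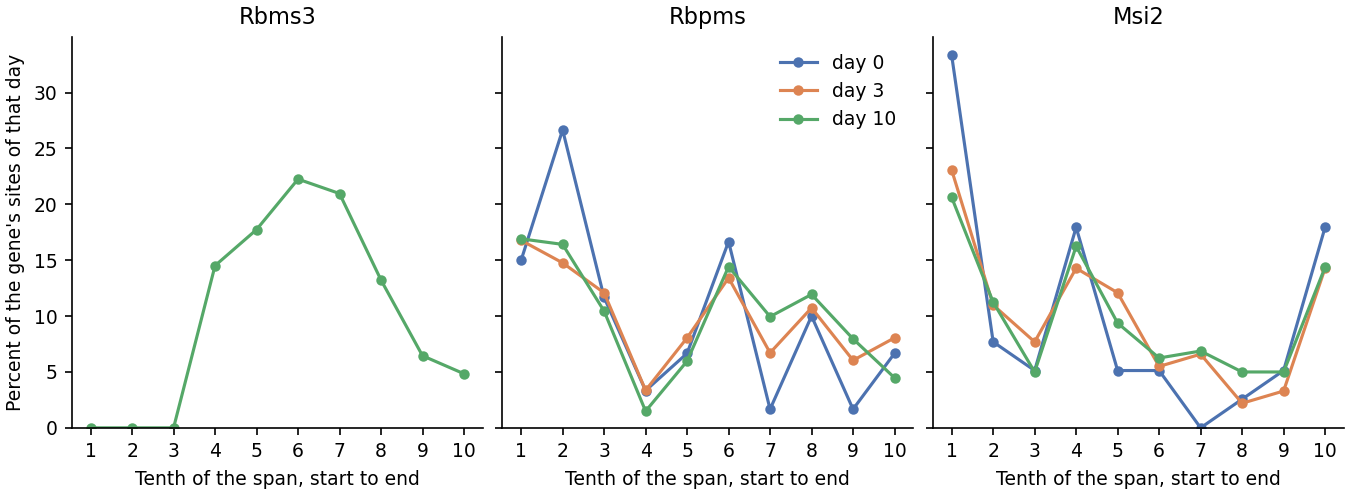
Percent of each gene's sites of a day that fall in each of 10 equal parts of its RefSeq span, from start to end, for day 0, day 3 and day 10. Part 4 of Rbpms is low on each day (2, 5 and 3 sites), part 2 of Rbpms is highest on day 0 (26.7%), parts 1, 4 and 10 of Msi2 are high on each day, and Rbms3 has no site in parts 1 to 3.

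Exons and introns could not be assigned, since the annotation used holds gene spans without exons. Other RefSeq genes lie inside the spans. Their overlap with sites was counted by position alone, without comparing strands, so it does not assign a site to them. Gm39452, an lncRNA of 16.0 kb inside Rbms3, overlapped 11 Rbms3 sites, and Gm51528, an lncRNA inside Rbpms, overlapped 1 site of day 0, 3 of day 3 and 4 of day 10. 0610039H22Rik, an lncRNA inside Msi2, overlapped a single site of day 10. The pseudogenes Gm18489 and Gm11510, the microRNA gene Mir378b and the lncRNAs Gm17396 and Gm39451 overlapped none.

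Many positions bound in Rbpms and Msi2 on day 0 were bound again later. A site was counted as reused where a site of the other day overlapped it by at least 1 nt on the same strand. Of the 60 Rbpms sites of day 0, 27 were reused on day 3 (45.0%, 32.1 to 58.4) and 24 on day 10 (40%, 27.6 to 53.5). Of the 39 Msi2 sites of day 0, 15 were reused on day 3 (38.5%, 23.4 to 55.4) and 16 on day 10 (41.0%, 25.6 to 57.9). Over the whole day 0 list, 17.4% of sites overlapped a day 3 site and 24.1% a day 10 site, and how far the density of sites in these genes accounts for the difference was not tested. Set beside the 158 genes that held at least 20 sites on both day 0 and day 3, of which the median gene reused 20.0% of its day 0 sites, Rbpms ranked 2 and Msi2 10. For day 0 sites on day 10, the median of 190 such genes was 31.1%, and Rbpms ranked 53 and Msi2 49. In the reverse direction, 18.1% of Rbpms and 16.5% of Msi2 day 3 sites overlapped a day 0 site, against a median of 20.0% (ranks 99 and 112 of 158). Day 10 sites overlapped day 0 sites in 11.9% and 10.6%, against a median of 17.3% (ranks 149 and 162 of 190). A gene with more sites on the later day has more positions where overlap can occur, and the genes were chosen on those numbers. No test was made of these ranks, and nothing is read from them.

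From day 3 to day 10, 57 of 149 Rbpms sites were reused (38.3%, 30.4 to 46.6) and 27 of 91 Msi2 sites (29.7%, 20.5 to 40.2), against 25.9% of the whole day 3 list and a median of 28.9% over 217 genes. Msi2 lay at that median within its interval. In reverse, day 10 sites overlapped day 3 sites in 27.9% for Rbpms and 16.9% for Msi2, against a median of 15.2% (ranks 17 and 86 of 217). Requiring identical positions lowered all 6 shares, to between 12.8% and 26.7%.

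On day 10 most sites of both genes were at positions not listed earlier. In Rbpms, 136 of 201 day 10 sites (67.7%) overlapped no earlier site, and in Msi2 125 of 160 (78.1%). Of the whole day 10 list, 9.68% of sites overlapped a day 0 site and 9.90% a day 3 site, so new positions prevailed there too. The same overlaps were 11.9% and 27.9% in Rbpms and 10.6% and 16.9% in Msi2. On day 3 the corresponding numbers, sites without overlap on another day, were 80 of 149 (53.7%) and 58 of 91 (63.7%), and on day 0 they were 24 of 60 (40%) and 17 of 39 (43.6%). Of the whole day 3 list, 18.3% of sites overlapped a day 0 site and 25.9% a day 10 site. Of the whole day 0 list, 17.4% overlapped a day 3 site and 24.1% a day 10 site. The longer the gene's list on a day, the larger was the part found on that day alone.

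Positions bound on all 3 days numbered 15 in Rbpms and 9 in Msi2. In Rbpms, 4 of them lay in the first 3.20 kb of the gene, with day 0 centres at 33926725, 33927136, 33928240 and 33928419. Another 3 stood together about 106 to 108 kb from the start, at 33821873, 33823673 and 33824015, and a pair lay at 33861187 and 33861541. In Msi2, 1 was the site 204 nt from the start, centred on 88718102, and 5 more lay between 9.31 and 35.3 kb from the start. A further 2 stood close to the end of the gene, 0.790 and 1.66 kb from it, at 88340172 and 88341043. The recurring positions therefore included both edges of Msi2 and the beginning of Rbpms.

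**Figure D4:**
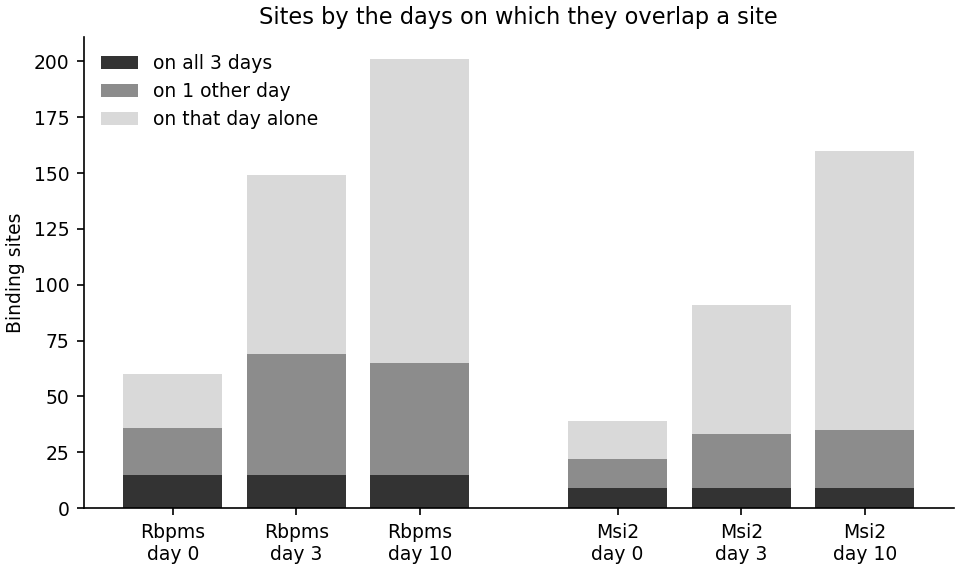
Number of sites in Rbpms and Msi2 on each day, split by whether they overlap a site of the same gene on all 3 days, on 1 other day or on no other day (at least 1 nt, same strand). The part found on all 3 days stays at 15 and 9 sites while the part of a single day grows to 136 and 125 sites on day 10.

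Sites of Rbpms were more closely spaced than in the median gene on each day, and those of Msi2 were wider apart on day 0 and close to the median on day 3. The median distance between neighbouring Rbpms sites was 689 nt on day 0, 493 nt on day 3 and 330 nt on day 10, against medians of 1234, 1680 and 761 nt over the 292, 274 and 944 genes with at least 20 sites. From the shortest distance upwards, Rbpms was number 6 of 274 genes on day 3. For Msi2 the distances were 3758, 1605 and 993 nt, which from the shortest upwards were number 266 of 292, 133 of 274 and 600 of 944. In Rbms3 the median distance was 948 nt on day 10. Distances between neighbours shorten as a gene holds more sites per length, and the genes compared were not matched for density. The spacing is therefore not read apart from the densities given above.

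How many sites counted as grouped depended on the distance allowed. Of the Rbpms sites, 4 of 60, 22 of 149 and 41 of 201 had another site within 50 nt, which is 6.67% (1.85 to 16.2), 14.8% (9.49 to 21.5) and 20.4% (15.1 to 26.6) on day 0, day 3 and day 10. The medians over genes with at least 20 sites were 8.33%, 6.67% and 12.1%. In Msi2 the numbers were 2 of 39, 0 of 91 and 15 of 160, and in Rbms3 24 of 310 on day 10 (7.74%, 5.02 to 11.3). Within 200 nt the proportions were 35%, 43.0% and 55.2% in Rbpms on day 0, day 3 and day 10, 5.13%, 6.59% and 35% in Msi2 and 31.6% in Rbms3 on day 10, against medians of 25%, 20% and 35.7% over genes.

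The relatives of the 3 genes did not share 1 pattern over the days. Rbms1, which encodes another single-strand-interacting protein, held 4 sites on day 0, 2 on day 3 and 200 on day 10. Its share on day 10 was 20.0 times that of day 0 (7.70 to 74.2). Like Rbms3 it was thus bound almost entirely on day 10, but unlike Rbms3 it was listed on all 3 days. Rbms2 held 4 sites on day 10 and none before. Per length, Rbms1 held 93.6 sites per 100 kb on day 10, above the 29.3 of Rbms3, and Rbms2 7.87.

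Rbpms2, the paralog of Rbpms, held 12, 25 and 3 sites. Its day 3 share was 2.19 times that of day 0 (1.06 to 4.79), and its day 10 share was 0.100 times that of day 0 (0.0181 to 0.371). Rbpms and Rbpms2 were therefore both larger on day 3 than on day 0, and on day 10 the number of Rbpms sites was 201 and that of Rbpms2 3. Msi1, the other Musashi gene, held 1, 0 and 5 sites, too few to set beside Msi2. Of the 7 genes of these families, 4 had a larger share on day 10 than on day 0 (Rbms1, Rbms3, Rbpms and Msi2), while Rbpms2 had a smaller one. Over all genes, many of them with few sites, 7.33% had a larger share and 10.5% a smaller one. Among genes with at least 20 sites over the pair, 4 of 4 family genes were larger, beside 30.1% larger and 19.5% smaller of all such genes. The median log2 ratio over the 7 genes was 0.69, against -0.32 over all genes and 0.16 over the 1351 genes with at least 20 sites. As 3 of the 7 were chosen on these numbers, the counts and the median are a description.

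Among 75 other regulators that bind RNA, most had an interval that included 1. Between day 0 and day 10, 53 held a site, of which 11 had larger shares on day 10, 5 had smaller shares and 37 neither. Over all 7451 genes, many of them with few sites, the proportions were 7.33% larger and 10.5% smaller. Among genes with at least 20 sites over the pair, 10 of 28 in the list were larger (35.7%) and 4 smaller (14.3%), near the 30.1% and 19.5% of all such genes. The list had a median log2 ratio of 0.26, against -0.32 over all genes, and among genes with at least 20 sites the order turned, to 0.064 for the list against 0.16. With a pseudocount of 5 the list's median was -0.41. Scaled by bound genes, 21 had a larger share and none a smaller one, and over all genes the larger calls went from 41.2% to 78.4% of the calls. Ptbp1 and Esrp2 held sites under IDs without a unique name and are not counted.

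Mbnl2, a splicing regulator of muscle, had the most sites of the list with 39, 25 and 185 in the order of the days. Qk, a STAR protein like SAM68, held 81, 28 and 125. Pum2, a repressor of translation, held 25, 41 and 75 sites, and its day 3 share was 1.73 times that of day 0 (1.02 to 2.96), a difference whose interval included 1 when scaled by bound genes. Rbm39, a splicing cofactor, held 41, 35 and 61, and Igf2bp3, an mRNA-binding protein of embryonic cells, 24, 30 and 70. None of these 5 had as large a share on any day as Rbpms on day 3, the nearest being Qk on day 0 with 27.2 sites per 10000.

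The largest log2 ratios from day 0 to day 10 in the list belonged to Samd4, Celf2 and Rbm20, which held 50, 46 and 25 sites on day 10 and were listed at 0 before. These genes shared with Rbms3 that they were listed on day 10 alone, with fewer sites. The smallest belonged to Fxr1, with 31, 20 and 24 sites, and Tnrc6c, with 20, 23 and 21. The Fxr1 share on day 10 was 0.310 times that of day 0 (0.174 to 0.546) and the Tnrc6c share 0.420 times (0.217 to 0.817), and scaled by bound genes neither had a smaller share.

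Between day 0 and day 3, 48 genes of the list held a site, of which Esrp1, Pum2 and Tnrc6b (3 genes) had larger shares on day 3, Qk and Rbfox2 (2 genes) smaller shares and 43 neither. Over all 6346 genes 3.84% were larger and 4.3% smaller, and among genes with at least 20 sites 2 of 17 in the list were larger and 2 smaller, beside 16.9% and 17.1%. Between day 3 and day 10, 9 of 55 had a larger share and 7 a smaller one, against 5.62% and 8.58% of 7299 genes. Scaled by bound genes, these became 20 and 2. Among genes with at least 20 sites, 8 of 28 were larger and 4 smaller, beside 24.5% and 17.5%.

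**Figure D5:**
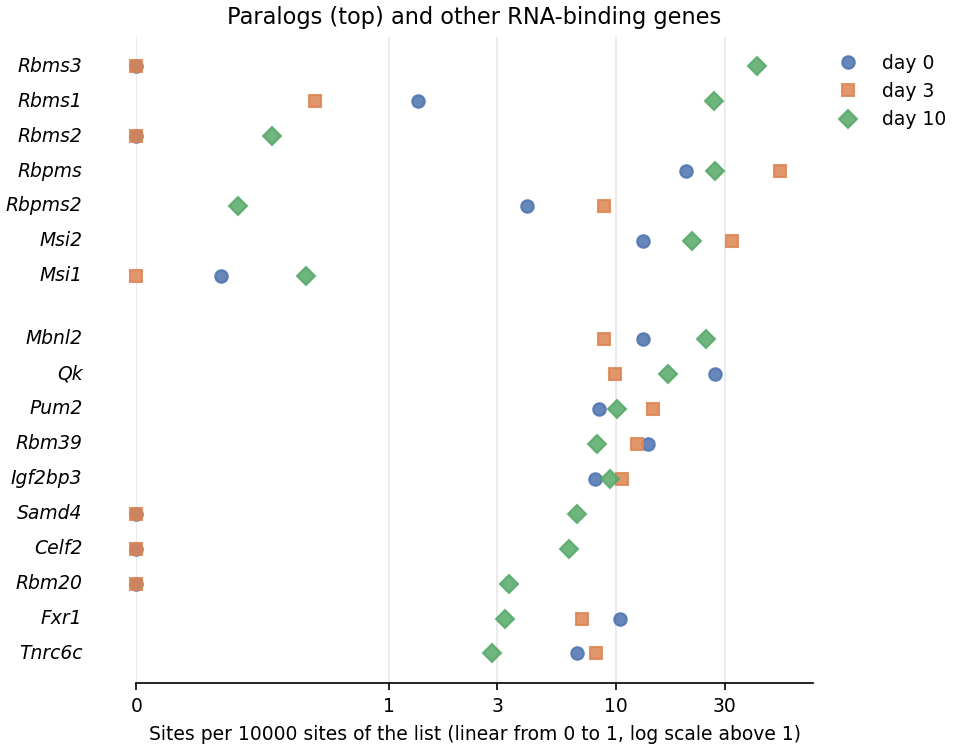
Sites per 10000 sites of the list on day 0, day 3 and day 10 for the 7 genes of the 3 families (top) and for the genes of the RNA-binding list named in the text by a rule (bottom), on an axis that is linear from 0 to 1 and logarithmic above. Rbms3 and Rbms1 lie far to the right on day 10 (41.7 and 26.9), and Rbpms, Msi2 and Rbpms2 lie furthest to the right on day 3, which for Rbpms and Msi2 against day 10 turns when scaled by bound genes.

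The genes nearest to each of the 3 in their pattern over the days were found by the distance between the log2 of sites per 10000 plus 1 on the 3 days, over 1625 named protein-coding genes with at least 20 sites. This likeness rests on 3 values per gene. Nearest to Rbms3 were Arhgap6 with 298 sites, Unc5c with 291 and Pcdh7 with 267, all on day 10 alone, at distances of 0.0556, 0.0890 and 0.210. Nearest to Rbpms was Msi2, at a distance of 0.962, followed by Setd5 (67, 69 and 174 sites) and Kansl1 (72, 67 and 169) at 1.11 and 1.17. Nearest to Msi2 were Rere (46, 57 and 174) and Pard3 (34, 54 and 176), at 0.696 and 0.758. Rbms3 and its 3 neighbours were all listed at 0 on day 0 and day 3, so their distances rest on the day 10 value alone. They are therefore not compared with the distances of Rbpms or Msi2. As the 3 genes were chosen with these numbers known, the nearness of Msi2 to Rbpms is a description. On day 3, the 3 genes nearest to Rbpms held 32.2, 24.4 and 23.7 sites per 10000, against its 52.7.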

How the data were processed

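iCLIP2 libraries of SAM68 were made from 5 samples per day (day 0, day 3 and day 10). Sites were deposited as 1 list for each day, already assigned to genes with overlaps between genes removed, per the file headers. Each deposited site is 5 nt wide, and its score is 0 in every entry and was not used. The submitters' processing notes name GRCm38.p5 besides GRCh38.p14 as builds and, among other tools, UMI-tools 1.1.6 and STAR 2.7.11a. The sources used here name neither the site caller nor the way libraries were combined. Without crosslink counts the depth is unknown, and a gene at 0 sites has no floor.

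An Ensembl ID took the symbol of the 1 RefSeq protein-coding gene (GRCm38.p6) whose span took in 80% or more of its sites, which named 7060 of 7380 protein-coding IDs. Positions are site centres counted from 1. A share is a gene's sites divided by the list length. Ratios of shares have exact conditional binomial 95% intervals, log2 ratios a pseudocount of 1, site numbers exact Poisson intervals and percentages exact (Clopper-Pearson) intervals. A gene has a larger or smaller share where its interval excludes 1. Alternatives were the scale, merging, the overlap, distances and filters. The exon, protein and motif steps that were planned needed references not used here. From the RNA-binding list, the text names the 5 genes with most sites and, among the 30 with at least 20 sites, the 3 largest and 3 smallest log2 ratios of day 10 to day 0. Some genes that the naming rules picked are not reported here. Steps were tested on simulated data. The 3 genes and all lists were chosen with earlier results of these data known. Python 3.11.15, NumPy 2.4.6, pandas 2.3.3, SciPy 1.17.1 and matplotlib 3.10.9 were used.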

Additional observations from a re-analysis of the deposited data

How the results depend on the processing

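No paired analysis was possible because each day is 1 list without values for single libraries, and for the same reason no library could be left out. The share ratios of Rbpms and Msi2 for day 3 against day 0, and of Msi2 for day 10 against day 0, kept their direction and their side of 1 under all 5 alternatives. The Rbpms ratio of day 10 to day 0 was 1.32 over protein-coding genes and 1.27 with merged sites, both with intervals that include 1. Scaled by bound genes, the ratios of day 10 to day 3 turned to 1.07 for Rbpms and 1.39 for Msi2. Rbms3 density was 46.3 sites per 100 kb from its first to its last site. With identical positions, reuse of day 0 sites on day 3, of day 0 sites on day 10 and of day 3 sites on day 10 was 26.7%, 18.3% and 14.8% in Rbpms and 12.8%, 15.4% and 14.3% in Msi2. Scaled by bound genes, a setting chosen after seeing the data, the RNA-binding list had 21 larger and 0 smaller shares for day 10 against day 0 and 20 and 2 against day 3, and the family list had 1 smaller share for day 10 against day 3. Among genes with at least 20 sites, the smaller shares numbered 4 for the RNA-binding list (day 10 against day 3) and 0 for the family list (day 10 against day 0). The median log2 ratio of the RNA-binding list turned to -0.41 for day 10 against day 0 (pseudocount 5), to -0.034 for day 3 against day 0 (at least 20 sites) and to 0.0045 (pseudocount 0.5) and 0.0027 (at least 5 sites) for day 10 against day 3. That of the families turned to -0.55 (pseudocount 5) and -0.59 (at least 20 sites) for day 10 against day 3. The causes were not tested beyond how each setting is built.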
